A study of Mus musculus with 73 samples.

Results

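The translation initiation and elongation factors described here are the mouse genes whose symbols begin with Eif or Eef followed by a digit. The rule took features (spotted cDNA clones) that the array's probe table pairs with a single such symbol, and it found 32 features for 31 genes among 9596 features and 6795 genes. Eif2ak2 was the gene with 2 features, and its features were averaged on each array. Eif4g1, Eif2s1 and Eif2s3x were not among the genes measured. Of the 31 genes, 27 also held values on the arrays of directly compared mammary tumors, and Eef1a1, Eef1akmt1, Eif3l and Eif1ad did not.

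RNA was measured on 73 cDNA arrays, each with 2 colours. On 35 reference arrays a tissue labelled with Cy3 was set against Stratagene universal reference RNA labelled with Cy5, and a value is the log2 ratio of tissue to reference. Prostate (4 normal, 5 tumor) and seminal vesicle (4 normal, 6 tumor) were C57BL/6, with wild-type normal tissue and tumors of TRAMP mice, in which the probasin (PB) promoter drives the SV40 T/t-antigen. Mammary gland (4 normal, 4 tumor) and lung (4 normal, 4 tumor) were FVB, with wild-type normal tissue and tumors driven by C3(1)/SV40 T/t-antigen or CC10/SV40 T/t-antigen. On 38 direct arrays a mammary tumor (Cy5) was set against wild-type mammary gland of its strain (Cy3), and a value is the log2 ratio of tumor to normal gland. The direct models were p53-/-;transplant (Balb/c, n = 5), p53fp/fp;WAP-cre (C57BL6/129sv, n = 4) and Brca1 Co/Co;MMTV-cre;p53 (C57BL6/129sv, n = 5), together with FVB mice that carry C3(1)/SV40 T/t-antigen, MMTV-PyMT, MMTV-ras or MMTV-her2/neu (5 arrays each) or MMTV-myc (4 arrays). WAP and MMTV sequences drive expression mainly in mammary epithelium, and the p53-/- tumors grew from transplants. Ages were not used. Strain cannot be told apart from site between the C57BL/6 and the FVB tissues, nor from model for 3 of the 8 direct models. The labels do not say whether arrays of a group came from separate animals, so p-values measure the spread between arrays, which may be technical.

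Translation begins when eIF4E binds the cap of an mRNA and joins the scaffold eIF4G and the helicase eIF4A. The 4E-binding proteins (4E-BP) hold eIF4E away from that scaffold until mTOR phosphorylates them. The mRNA is then loaded on a small ribosomal subunit that carries eIF3, eIF1A and the initiator tRNA bound to eIF2, and phosphorylation of eIF2 by stress-activated kinases lowers the supply of that tRNA. During elongation eEF1A delivers aminoacyl-tRNA, eEF2 moves the ribosome along the message, and eIF5A helps it past difficult sequences. Several of these factors are known targets of the transcription factor Myc, and tumors often carry more of them.

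Promoter sequences were available from RefSeq (GRCm38.p6) for 24 of the 31 genes, as 29 windows that end at a transcription start. The last 250 bases before the start are printed for the helicase genes Eif4a1 and Eif4a2, because they changed in opposite directions in most tumors, and for Eif1ax, because it was higher in most tumors of both designs. Capitals mark matches on either strand to the motifs searched, which were the E-box CACGTG, the CCAAT box, the GC box GGGCGG, the E2F forms TTTCGCGC and TTTGGCGC, the CREB core TGACGT, the TATA box TATAAA and the ETS core CCGGAAG.

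Eif4a1 (chr11:69672424-69672673, minus strand): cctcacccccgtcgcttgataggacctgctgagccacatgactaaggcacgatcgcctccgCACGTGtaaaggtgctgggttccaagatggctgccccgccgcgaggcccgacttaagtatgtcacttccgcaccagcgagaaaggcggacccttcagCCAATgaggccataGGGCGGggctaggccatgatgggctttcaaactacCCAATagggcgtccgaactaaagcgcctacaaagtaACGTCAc

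Eif4a2 (chr16:23107218-23107467, plus strand): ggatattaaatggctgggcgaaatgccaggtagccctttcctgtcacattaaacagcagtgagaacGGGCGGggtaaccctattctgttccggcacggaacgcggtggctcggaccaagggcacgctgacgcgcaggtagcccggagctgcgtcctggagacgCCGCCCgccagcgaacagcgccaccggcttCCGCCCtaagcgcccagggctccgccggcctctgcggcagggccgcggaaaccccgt

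Eif1ax (chrX:159371928-159372177, plus strand): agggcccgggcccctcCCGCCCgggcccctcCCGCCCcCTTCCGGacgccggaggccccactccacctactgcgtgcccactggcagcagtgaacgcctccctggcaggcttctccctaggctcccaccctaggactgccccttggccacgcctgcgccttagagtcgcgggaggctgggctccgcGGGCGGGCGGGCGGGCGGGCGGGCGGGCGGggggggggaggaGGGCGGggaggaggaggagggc

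The Eif4a1 window holds an E-box, 2 CCAAT matches in the same orientation, a GC box and a TGACGT match. The Eif4a2 window holds GC boxes and none of the other motifs, and the Eif1ax window holds overlapping GC boxes and 1 CCGGAAG match. Across the 24 genes the E-box was found in 6 (Eef2, Eef2k, Eif3f, Eif4a1, Eif4e and Eif5a2), against 6.02% of all 32851 promoter windows of the same length. The GC box was found in 17 genes, against 32.7% of all windows, and the CCAAT box in 7 genes, against 33.8%. TGACGT was found in 7 genes, against 6.47%, and CCGGAAG in 7 genes, against 6.91%. TATAAA was found in Eef2, Eif2s3y and Eif3f, against 12.4% of all windows, and neither E2F form was found. A gene was counted where any of its windows matched, so these gene counts and the shares of windows differ in unit. Of the 29 windows, 6 held the E-box, 18 the GC box, 7 the CCAAT box, 7 TGACGT, 7 CCGGAAG and 3 TATAAA. A match is a description of letters in these windows and not of a bound site.

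The composition of the samples differed beside their tumor status. Markers of skeletal muscle (15 of 18 listed were measured) averaged 3.64 to 4.53 on the normal prostate arrays and -0.09 to 0.23 on the prostate tumor arrays, and on the direct arrays their group means lay between -4.03 and -1.93. Adipocyte markers (10 of 15 measured) averaged 3.30 to 3.76 in normal mammary gland and 0.40 to 1.92 in mammary tumors, and -3.50 to -1.74 across the direct models. Neuroendocrine markers (7 of 11 measured) averaged 2.16 to 3.01 in prostate tumors and had means from -0.16 to 0.16 in the other reference groups. Prostate secretory genes (4 of 11 measured) averaged 2.31 in normal prostate and -0.02 in prostate tumors, and 3.44 and 2.75 in normal and tumor seminal vesicle. Epithelial markers averaged 1.44 in normal prostate and -0.76 in its tumors, and were higher in tumors than in normal tissue at the other 3 sites. Proliferation markers averaged -1.82 in normal prostate and 0.94 in its tumors, and -2.10 and -0.75 in seminal vesicle. They averaged -1.62 and 0.17 in mammary gland, -1.54 and 0.72 in lung, and 0.31 to 1.53 across the direct models. In mammary gland milk markers averaged 2.98 in normal tissue and 1.01 in tumors, and lymphocyte markers 0.67 and -0.27. In bulk tissue, fewer cells of a type and less RNA per cell cannot be told apart. On the reference arrays, where a value below was also fitted with the muscle mean as a covariate and lost its call, the value is given. The direct arrays were not fitted with this covariate, so the part of muscle there was not tested. The part of fat, neuroendocrine cells, proliferation and the other lists in the results was not tested.

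The share of translation factor genes that passed the test (limma, Benjamini-Hochberg adjusted p under 0.05 over all genes) lay near that of all genes in most comparisons, so the counts are not a result about these genes. In prostate tumors 11 rose and 5 fell of 31, where 61.4% of all genes passed (29.2% higher, 32.2% lower) and the list's median difference was 0.15 against -0.03 for all genes. In seminal vesicle tumors 5 rose and 5 fell, where 43.5% of all genes passed (23.3% higher, 20.2% lower), with medians of 0.11 and 0.04. After quantile normalization 0 rose and 5 fell there. In mammary tumors 4 rose and 8 fell, where 36.7% of all genes passed (16.6% higher, 20.1% lower), with medians of -0.12 and -0.02. In lung tumors 10 rose and 3 fell, where 36.5% passed (16.2% higher, 20.4% lower), with medians of 0.23 and -0.06.

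Among the 27 genes of the direct arrays, rises outnumbered falls in most models. In p53-/-;transplant tumors 5 rose and 2 fell, where 20.8% of all genes passed (9.66% higher, 11.1% lower). In p53fp/fp;WAP-cre tumors 10 rose and 1 fell, where 29.1% passed (18% higher, 11.1% lower). In the Brca1 Co/Co model 6 rose and 6 fell, where 47.4% passed (26.2% higher, 21.2% lower), and in C3(1) tumors 5 rose and 4 fell, where 41.8% passed (22.4% higher, 19.5% lower). In MMTV-her2/neu 8 rose and 0 fell, where 25.9% passed (15% higher, 10.9% lower), and in MMTV-myc 5 rose and 0 fell, where 23.1% passed (12.2% higher, 10.9% lower). In MMTV-ras 7 rose and 1 fell, where 18.9% passed (9.97% higher, 8.89% lower), and in MMTV-PyMT 7 rose and 2 fell, where 30.3% passed (18.3% higher, 12% lower). Over the 8 models 14 genes differed, where 42.1% of all genes did, and over the 5 FVB models 2 did, where 7.84% of all genes did. The direct arrays had medians between -0.42 and 0.66 as deposited and were centred on them, so a change is relative to the array. Without centring the splits were 3 higher and 1 lower in p53-/-;transplant, 4 and 1 in p53fp/fp;WAP-cre, 10 and 3 in the Brca1 Co/Co model, 10 and 1 in C3(1), 5 and 0 in MMTV-her2/neu, 8 and 0 in MMTV-myc, 7 and 1 in MMTV-ras, and 6 and 0 in MMTV-PyMT.

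**Figure D1:**
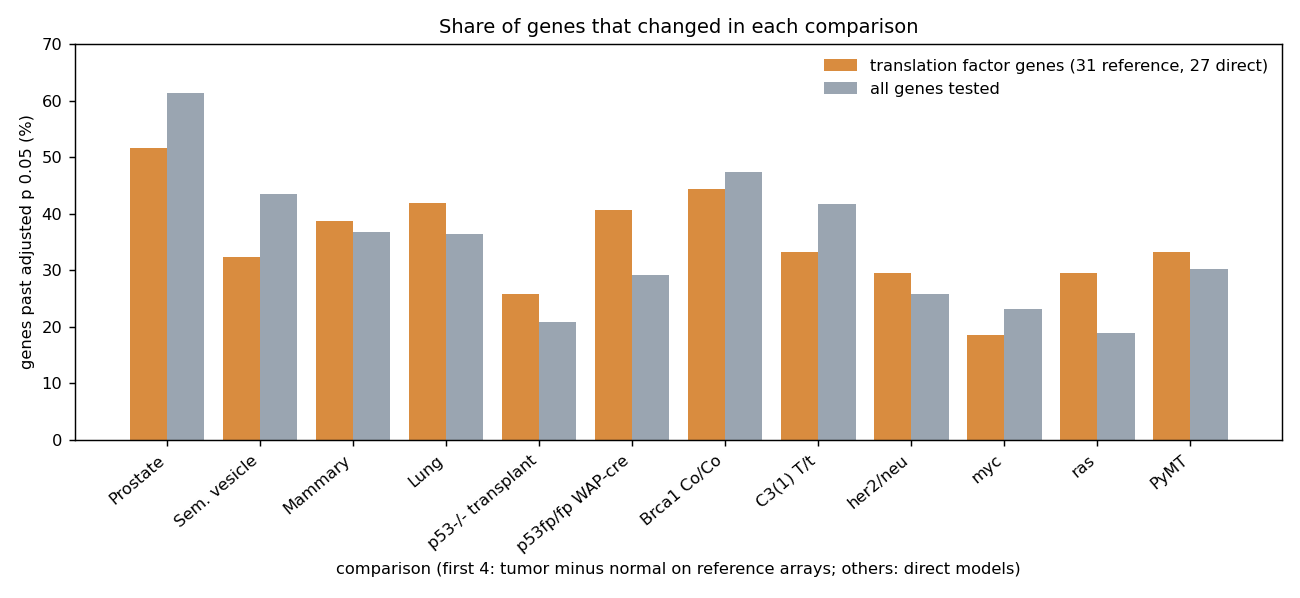
Percent of genes past an adjusted p of 0.05 in each of 12 comparisons, for the translation factor genes (31 on reference arrays, 27 on direct arrays) and for all genes tested. The bars of the translation factors lie above those of all genes in 7 comparisons and below them in 5, from 51.6% against 61.4% in prostate to 18.5% against 23.1% in MMTV-myc.

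Several single genes changed the same way in many tumors. Eif4a1 was higher in all 8 direct models, as were 57 of 5768 genes (0.988%). Eif4a1, Eif1ax, Eif2ak2 and Eif3l rose in at least 3 of the 4 sites, as did 9.42% of all genes. Eif4e3 fell in 4 of 4 sites, as did 54 of 6750 genes (0.8%), and Eif4a2 fell in 3 sites (at least 3 sites: 7.5% of genes). Eif1ax rose in 6 models (at least 6 models: 5.1%), and Eif4a2 fell in 6 models (4.75%). Eef1a1, Eef1akmt2, Eif1a, Eif2b4, Eif3a and Eif3l rose in 1 site and fell in another, a pattern that 21% of genes had.

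**Figure D2:**
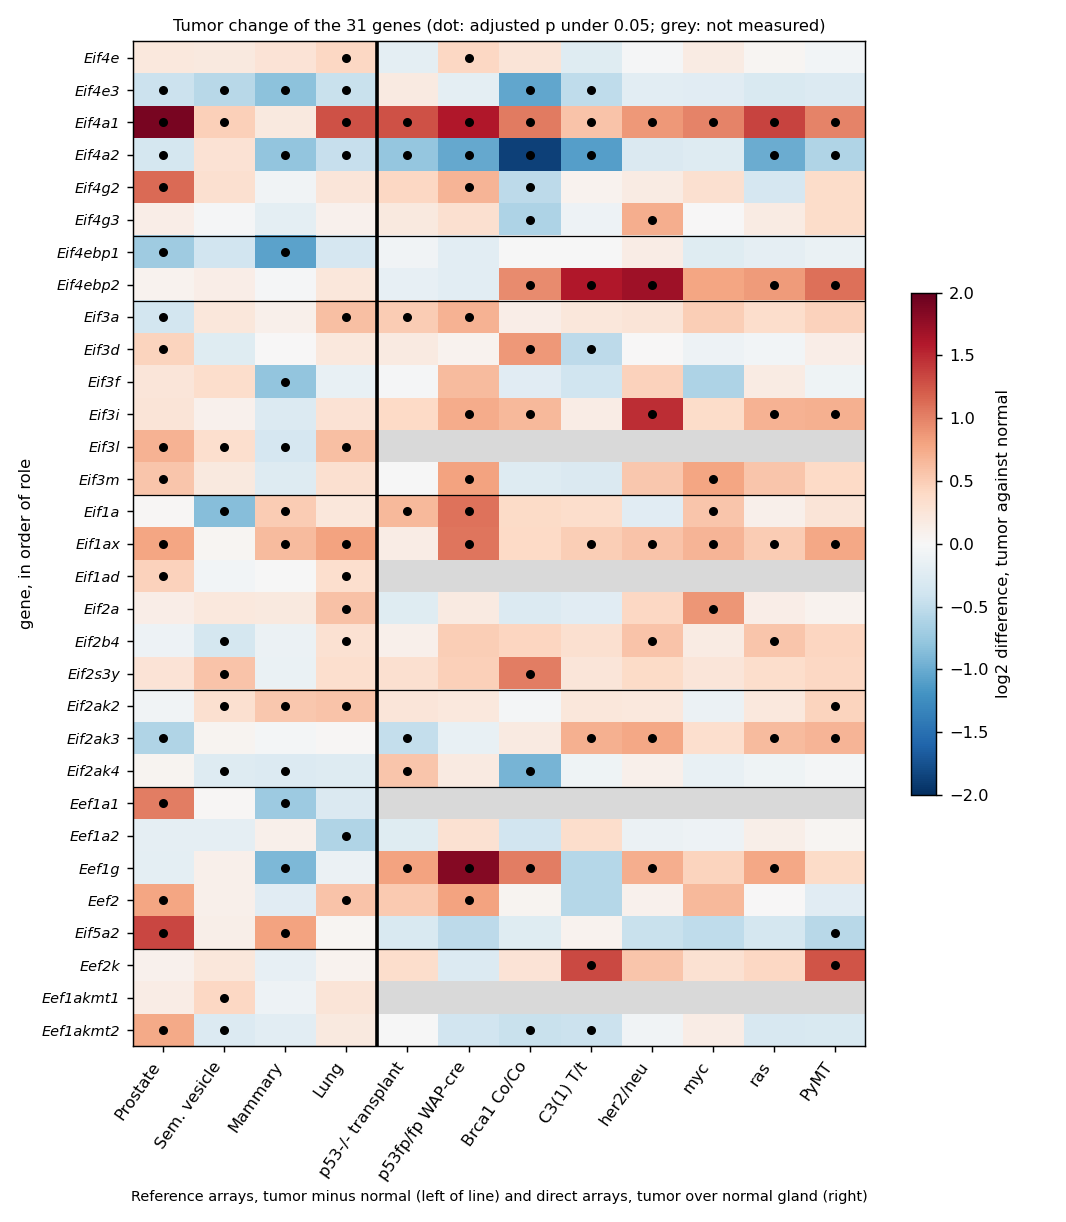
Log2 difference of tumor against normal for the 31 genes (rows, ordered by role, with lines between the roles) in the 4 sites of the reference arrays and the 8 direct models (columns), with a dot where the adjusted p was under 0.05 and grey where a gene held no direct value. The row of Eif4a1 is red in all 12 columns, from 0.19 in mammary gland to 1.90 in prostate, and the row of Eif4a2 is blue in 11 of them.

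The helicase genes Eif4a1 and Eif4a2 encode closely related forms of eIF4A, the RNA helicase of the cap complex, and the clones may cross-react. Eif4a1 had the largest change of the list in prostate tumors. Its log2 ratio to the reference was -1.48, -1.71, -1.72 and -1.28 in normal prostate and 0.07, 0.66, 0.77, 0.17 and 0.09 in prostate tumors. Every tumor array lay above every normal array, and the difference was 1.90 (SE 0.16, 3.72-fold, adjusted p = 6.65e-12). Such separation, in either direction, held for 53.5% of all genes in prostate, 33.2% in seminal vesicle, 31.9% in mammary gland and 34.4% in lung. In lung the normal arrays were at -1.16, -1.61, -1.66 and -0.98 and the tumors at -0.01, -0.18, -0.01 and -0.12, again without overlap, a difference of 1.27 (SE 0.17, 2.42-fold, adjusted p = 3.74e-07). In seminal vesicle the normal arrays were at -1.12, -1.23, -1.40 and -1.02, and the tumors ran from -0.99 through a median of -0.80 to -0.40. That difference was 0.47 (SE 0.15, adjusted p = 0.014), and the call was lost after quantile normalization (0.16), with blocks of array numbers in the fit (0.48) and without normal array 3 (0.40, adjusted p = 0.0599). In mammary gland the normal arrays (-0.74, -0.34, -0.33, -1.02) and tumors (-0.40, -0.64, -0.24, -0.38) overlapped, with a difference of 0.19 (SE 0.17, adjusted p = 0.418). Normal mammary gland held more Eif4a1 than normal lung, by 0.75 (SE 0.17, adjusted p = 0.000804). The tumor change itself was 1.43 larger in prostate than in seminal vesicle (SE 0.22, adjusted p = 3.08e-06), and it was smaller by 1.08 in mammary gland than in lung (difference -1.08, SE 0.24, adjusted p = 0.00111).

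Eif4a2 moved the other way in most tissues. In mammary gland it was at 0.83, 0.38, 0.64 and 0.46 on normal arrays and at -0.47, 0.01, 0.04 and -0.43 on tumor arrays, with no overlap and a difference of -0.79 (SE 0.14, 1.73-fold lower, adjusted p = 4.12e-05). In lung it was at 0.31, -0.31, 0.14 and 0.24 in normal tissue and at -0.63, -0.50, -0.10 and -0.23 in tumors. These ranges overlapped, and the difference was -0.46 (SE 0.14, adjusted p = 0.0107), which missed the threshold without tumor array 1 (-0.37, adjusted p = 0.0576). In prostate the normal arrays were at -0.07, -0.30, -0.33 and 0.06 and the tumors at -0.33, -0.68, -0.74, -0.49 and -0.34. The lowest normal and the highest tumor array there were almost equal, and the difference of -0.36 (SE 0.14, adjusted p = 0.0225) lost its call with the muscle mean as a covariate (-0.16), within the first block of array numbers (-0.11), with all blocks in the fit (-0.34) and without normal array 1 (-0.33), normal array 4 (-0.29), tumor array 2 (-0.32) or tumor array 3 (-0.30). In seminal vesicle the difference was 0.28 (SE 0.13, adjusted p = 0.0765). The first block holds 3 normal arrays and 1 tumor array of prostate, and each value from it for prostate assumes that this lone array varies like the other groups. The prostate change lay below the seminal vesicle change by -0.64 (adjusted p = 0.00537), a call that was lost with the muscle covariate (-0.44) and with blocks of array numbers (-0.38).

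Among the direct models Eif4a1 was higher than in normal gland on 38 of 38 arrays. All arrays of a model lay on 1 side of 0 for 34.4% (MMTV-ras) to 50.7% (MMTV-her2/neu) of all genes. The p53fp/fp;WAP-cre arrays gave 1.89, 1.49, 1.64 and 1.39, a mean of 1.60 (SE 0.22, 3.04-fold, adjusted p = 7.63e-07). MMTV-ras gave 1.64, 1.38, 0.86, 1.49 and 1.36, a mean of 1.34 (SE 0.19, adjusted p = 5.42e-06), and p53-/-;transplant gave 1.31, 1.41, 1.54, 1.30 and 0.80, a mean of 1.27 (SE 0.19, adjusted p = 6.75e-06). MMTV-myc (0.80, 1.22, 0.98, 1.00) averaged 1.00 (SE 0.22, adjusted p = 0.00126) and MMTV-PyMT (0.55, 0.77, 1.26, 1.05, 1.31) averaged 0.99 (SE 0.19, adjusted p = 0.000215). MMTV-her2/neu (0.46, 0.75, 1.36, 1.04, 0.72) averaged 0.87 (SE 0.19, adjusted p = 0.00117). The spread was widest in the Brca1 Co/Co model, at 1.97, 1.43, 1.69, 0.13 and 0.01, with a mean of 1.04 (SE 0.19, adjusted p = 4.05e-05). C3(1) tumors were at 1.28, 0.21, 0.01, 0.77 and 0.55, a mean of 0.56 (SE 0.19, adjusted p = 0.0194) that missed the threshold without array 1 (0.38, adjusted p = 0.147) or array 4 (0.51, adjusted p = 0.0644). The models did not differ in Eif4a1 at the threshold (moderated F, adjusted p = 0.0741 over the 8 models and 0.332 over the 5 FVB models).

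Eif4a2 was lowest in the Brca1 Co/Co tumors, at -1.69, -2.15, -1.43, -1.92 and -2.13, a mean of -1.87 (SE 0.23, 3.64-fold lower, adjusted p = 3.46e-08). C3(1) tumors gave -0.69, -2.21, -0.33 and -1.20 on the 4 arrays with a value, a mean of -1.11 (SE 0.25, adjusted p = 0.000739). The p53fp/fp;WAP-cre arrays (-0.63, -1.38, -0.54, -1.54) averaged -1.02 (SE 0.25, adjusted p = 0.00227), and MMTV-ras (-1.10, -1.04, -0.90, -1.24, -0.65) averaged -0.99 (SE 0.23, adjusted p = 0.00222). All arrays of these models were below 0. In p53-/-;transplant (-0.97, -0.74, -1.02, -0.27, -0.86) the mean was -0.77 (SE 0.23, adjusted p = 0.0123), and the call was lost without array 1 (-0.72, adjusted p = 0.0509) or array 3 (-0.71, adjusted p = 0.0517). In MMTV-PyMT (-0.86, -0.81, -0.34, -0.83, -0.13) the mean was -0.60 (adjusted p = 0.0436). It missed the threshold without array 1 (-0.53), 2 (-0.54), 3 (-0.66) or 4 (-0.54), as deposited (-0.63) and with a random block of array numbers (-0.56). MMTV-her2/neu (-0.29, adjusted p = 0.358) and MMTV-myc (-0.25, adjusted p = 0.492) did not pass, and the MMTV-myc arrays ranged from -1.67 to 1.02. The models differed in Eif4a2 (moderated F over 8 models, adjusted p = 0.00356).

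**Figure D3:**
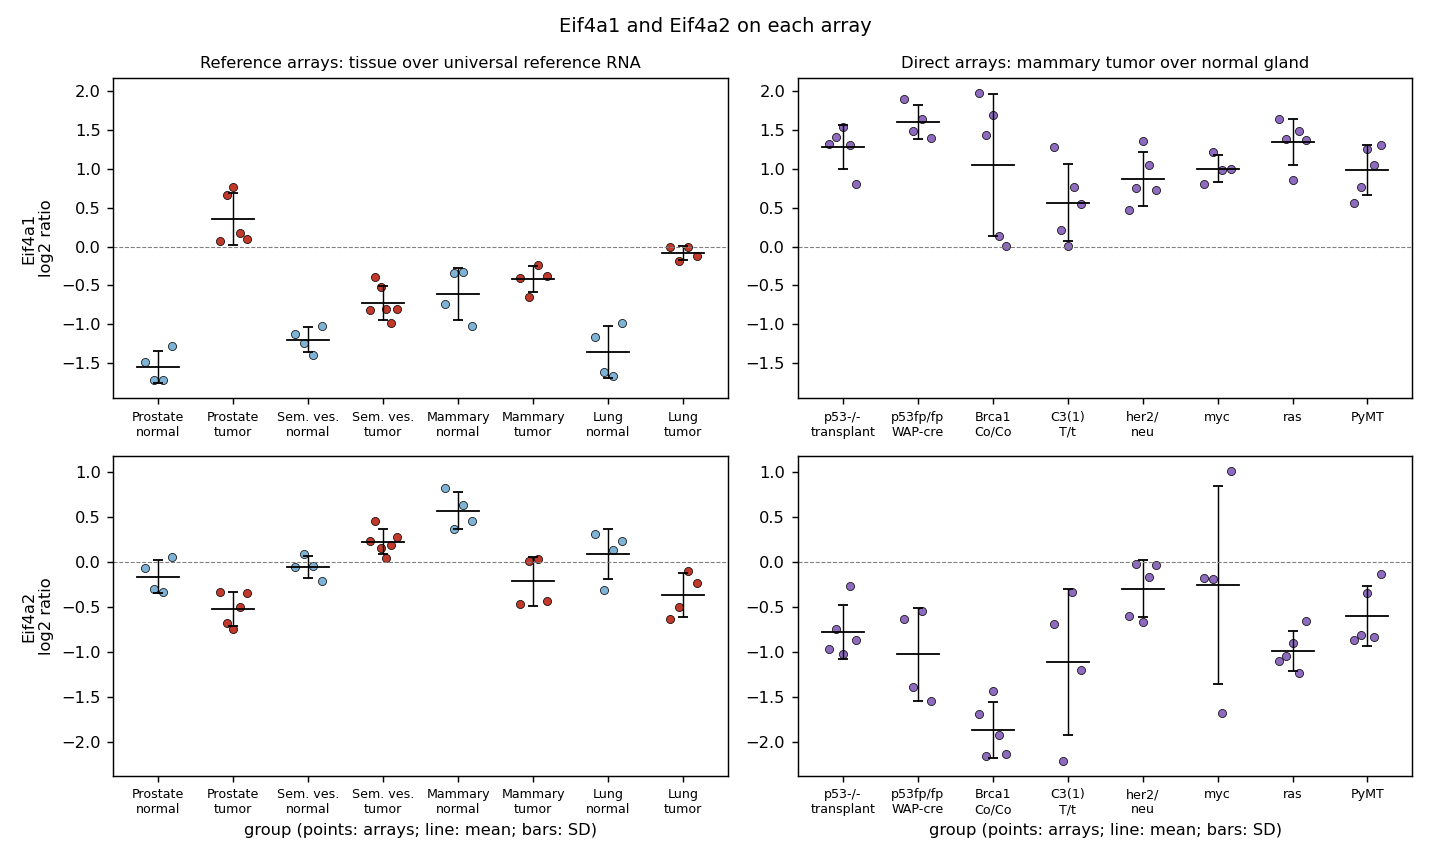
Eif4a1 (top) and Eif4a2 (bottom) on each array, with the log2 ratio of tissue to reference RNA in the 8 tissue groups on the left and of tumor to normal gland in the 8 models on the right; lines are means and bars are SD. Prostate and lung tumors lie above their normal tissue in Eif4a1, and all direct arrays are above 0, while Eif4a2 is below 0 on most direct arrays.

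Eif4e, the gene of the canonical cap-binding factor, passed in lung alone of the 4 sites. It was at -1.19, -1.04, -0.65 and -1.08 in normal lung and at -0.53, -0.76, -0.47 and -0.52 in lung tumors, ranges that overlapped, with a difference of 0.42 (SE 0.12, 1.33-fold, adjusted p = 0.00755) that lost its call with blocks of array numbers (0.28) and within the first block (0.32). In mammary gland the difference was 0.28 with a 95% interval of 0.04 to 0.52 (adjusted p = 0.0725), in prostate 0.22 with an interval of -0.01 to 0.45 (adjusted p = 0.104), and in seminal vesicle 0.19 (adjusted p = 0.162). The prostate value was larger and passed with blocks of array numbers in the fit (0.58, adjusted p = 0.00151) and within the first block, with its 1 tumor array (0.70, SE 0.19, adjusted p = 0.00743). These changes did not differ among the sites (adjusted p = 0.591). Of the direct models only p53fp/fp;WAP-cre passed, at 0.41 (adjusted p = 0.0284) with arrays from -0.15 to 0.90, and that call was lost as deposited (0.30, adjusted p = 0.273) and with a random block of array numbers (0.41, adjusted p = 0.133). Normal prostate held more Eif4e (-0.48, -0.54, -0.62, -0.36) than normal seminal vesicle (-1.06, -1.19, -1.19, -1.31), by 0.69 (SE 0.12, adjusted p = 2.33e-05), although that call was lost with the muscle covariate (0.62).

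Eif4e3, which encodes a divergent member of the cap-binding family, was the gene that fell at every site. In mammary gland it was at 1.09, 1.08, 1.21 and 1.00 in normal tissue and at 0.28, 0.48, 0.25 and 0.10 in tumors, a difference of -0.82 (SE 0.11, 1.76-fold lower, adjusted p = 2.86e-07). Normal seminal vesicle was at 1.12, 0.88, 1.03 and 1.09 and its tumors ran from 0.32 through a median of 0.48 to 0.64, a difference of -0.56 (SE 0.10, adjusted p = 4.09e-05) that lost its call after quantile normalization (-0.26). Normal lung (0.56, 0.48, 0.43, 0.82) and lung tumors (0.23, 0.18, -0.10, 0.21) differed by -0.44 (SE 0.11, adjusted p = 0.00151). Normal prostate (0.84, 0.76, 0.75, 0.93) and prostate tumors (0.37, 0.07, 0.41, 0.67, 0.43) differed by -0.43 (SE 0.10, adjusted p = 0.000516), a call lost with the muscle covariate (-0.37) and within the first block of array numbers with its 1 tumor array (-0.36). Tumor and normal arrays did not overlap at any of the 4 sites. The sites did not differ at the threshold (adjusted p = 0.0705).

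On the direct arrays Eif4e3 was lower in the Brca1 Co/Co model, at -0.58, -1.43, -0.47, -1.49 and -1.23, a mean of -1.04 (SE 0.13, 2.05-fold lower, adjusted p = 4.05e-08). C3(1) tumors were at -0.46, -1.05, -0.17, -0.39 and -0.44, a mean of -0.50 (adjusted p = 0.00203) that lost its call as deposited (-0.17). In p53-/-;transplant tumors every array lay above 0 (0.16, 0.32, 0.25, 0.12, 0.02), with no call. The models differed in Eif4e3 (adjusted p = 0.000348).

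Eif4g2 encodes a scaffold related to eIF4G that does not bind eIF4E and serves cap-independent initiation, and Eif4g3 encodes an eIF4G form that does bind it. Eif4g2 was at 0.39, 0.03, 0.04 and 0.02 in normal prostate and at 1.10, 0.99, 0.94, 1.33 and 1.85 in prostate tumors, a difference of 1.13 (SE 0.16, 2.18-fold, adjusted p = 2.01e-07). The other sites gave 0.32 in seminal vesicle (adjusted p = 0.0806), 0.25 in lung (adjusted p = 0.256) and -0.07 in mammary gland (adjusted p = 0.78), and the prostate change exceeded that of seminal vesicle by 0.80 (adjusted p = 0.00277), with no call under blocks of array numbers (0.71) or the muscle covariate (0.80). In the direct models Eif4g2 rose in p53fp/fp;WAP-cre (0.69, adjusted p = 0.00633; as deposited 0.58 and adjusted p = 0.0586). It fell in the Brca1 Co/Co model (-0.40, -0.29, 0.16, -1.07, -0.99; mean -0.52, adjusted p = 0.0133), a call lost as deposited (-0.33), after quantile normalization (-0.36) and without array 4 (-0.38) or 5 (-0.40). Eif4g3 passed at none of the 4 sites, with differences from -0.20 to 0.13. It rose in MMTV-her2/neu (0.68, 1.01, 0.46, 0.65, 0.82; mean 0.72, adjusted p = 0.00132) and fell in the Brca1 Co/Co model (-0.42, -0.72, -0.25, -0.55, -1.16; mean -0.62, adjusted p = 0.00224), where the call was lost as deposited (-0.43). The models differed in Eif4g3 (adjusted p = 0.00175).

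Both 4E-binding protein genes changed, each in a different set of arrays. Eif4ebp1, the inhibitor best known as an mTOR substrate, was at -0.21, 0.42, 0.24 and 0.27 in normal mammary gland and at -0.53, -0.84, -1.16 and -1.02 in C3(1) mammary tumors, without overlap and with a difference of -1.07 (SE 0.20, 2.10-fold lower, adjusted p = 5.1e-05). In prostate it was at -0.63, -0.69, -1.15 and -0.38 in normal tissue and at -0.80, -1.26, -1.77, -1.66 and -1.61 in tumors. These ranges overlapped, and the difference of -0.71 (SE 0.19, adjusted p = 0.00142) lost its call with the muscle covariate (-0.64) and with blocks of array numbers (-0.46). Seminal vesicle (-0.38, adjusted p = 0.0868) and lung (-0.34, adjusted p = 0.184) had differences of the same sign that did not pass. The first passed after quantile normalization (-0.79, adjusted p = 0.000534) and the second within the first block of array numbers (-0.63, adjusted p = 0.0155). Normal mammary gland held more Eif4ebp1 than normal lung (-1.23, -0.58, -0.68, -0.41), by 0.91 (SE 0.20, adjusted p = 0.000488), beside adipocyte marker means of 3.54 in normal mammary gland and 1.06 in normal lung. No direct model passed for Eif4ebp1, with means from -0.24 to 0.14.

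Eif4ebp2, the second 4E-binding protein, passed at no site of the reference arrays (0.08 in prostate, 0.13 in seminal vesicle, -0.02 in mammary gland and 0.23 in lung), and passed in prostate within the first block with its 1 tumor array (0.46, adjusted p = 0.0318). On the direct arrays it was among the largest rises. MMTV-her2/neu tumors gave 1.79, 1.29, 2.43 and 1.25 on the 4 arrays with a value, a mean of 1.69 (SE 0.30, 3.22-fold, adjusted p = 8.32e-05), and C3(1) tumors gave 1.61, 1.87, 0.70, 1.20 and 2.63, a mean of 1.60 (SE 0.27, 3.04-fold, adjusted p = 1.77e-05). MMTV-PyMT (1.50, 1.38, 1.40 and 0.12, n = 4) averaged 1.10 (SE 0.30, adjusted p = 0.00525), and the Brca1 Co/Co model (1.63, 0.27, 1.40, 0.32, 1.10) averaged 0.94 (adjusted p = 0.00404). All arrays of these models lay above 0. MMTV-ras (0.64, 0.86, 1.40, 1.20, 0.19) averaged 0.86 (adjusted p = 0.0214), a call lost without array 2 (0.86, adjusted p = 0.0516), 3 (0.72) or 4 (0.77) and with a random block of array numbers (0.77). MMTV-myc (1.82, 0.94, 1.31, -0.91) averaged 0.79 and did not pass (adjusted p = 0.0512), although it did as deposited (1.01), after quantile normalization (0.99) and with a replicate block (0.83). Neither p53-/-;transplant (-0.27, -0.34, 0.03, -0.17, -0.05; adjusted p = 0.715) nor p53fp/fp;WAP-cre (-0.40, -0.31, -0.21, 0.06; adjusted p = 0.638) was higher. The 8 models differed in Eif4ebp2 (adjusted p = 0.00106), and the 5 FVB models did not at the threshold (adjusted p = 0.287).

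The eIF3 genes encode subunits of the scaffold that holds the small ribosomal subunit and the mRNA together. Of the 6 measured, 3 rose and 1 fell in prostate tumors, 1 rose in seminal vesicle, 2 fell in mammary gland and 2 rose in lung, where 61.4%, 43.5%, 36.7% and 36.5% of all genes passed. The tumor change of all 6 differed among the sites, where 74.1% of all genes and 20 of the 31 translation factor genes did. Eif3l, a peripheral subunit, was at -1.14, -1.0, -0.97 and -1.18 in normal prostate and at -0.67, -0.20, -0.25, -0.31 and -0.42 in prostate tumors, a difference of 0.70 (SE 0.11, adjusted p = 1.89e-06) that lost its call with the muscle covariate (0.46). In lung it was at -1.21, -1.24, -1.10 and -1.09 in normal tissue and -0.78, -0.68, -0.20 and -0.59 in tumors, a difference of 0.60 (SE 0.12, adjusted p = 0.00012). Seminal vesicle normal tissue (-0.96, -1.0, -1.07, -0.87) and tumors (lowest -0.85, median -0.67, highest -0.47) differed by 0.33 (SE 0.11, adjusted p = 0.012), a value that was 0.02 after quantile normalization, with no call, and that lost its call with blocks of array numbers (0.44). In mammary gland the direction was the opposite, with normal arrays at -0.55, -0.38, -0.31 and -0.68 and tumors at -0.68, -0.76, -1.10 and -0.73, a difference of -0.34 (SE 0.12, adjusted p = 0.0218). The tumor change in mammary gland was thereby lower than that in lung (difference of changes -0.94, adjusted p = 8.45e-05).

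Eif3a, the largest core subunit, was at -0.46, -0.62, -0.44 and -0.53 in normal lung and -0.30, -0.07, 0.36 and 0.35 in lung tumors, a difference of 0.60 (SE 0.16, 1.51-fold, adjusted p = 0.00291). In prostate it was at 0.15, 0.07, 0.03 and -0.45 in normal tissue and -0.32, -0.54, -0.66, -0.66 and 0.06 in tumors, ranges that overlapped. That difference of -0.37 (adjusted p = 0.0301) lost its call with blocks of array numbers (-0.18), within the first block with its 1 tumor array (-0.02), with the muscle covariate (-0.39) and without any 1 of normal arrays 1 (-0.30), 2 (-0.33) and 3 (-0.34) or tumor arrays 2 (-0.34), 3 (-0.31) and 4 (-0.31). Eif3f, a subunit with an MPN domain, fell in mammary tumors, from -0.35, -0.09, -0.01 and -0.34 to -0.81, -1.03, -1.23 and -0.90 (difference -0.80, SE 0.18, 1.74-fold lower, adjusted p = 0.000486). Eif3d, a subunit that can itself contact the cap, and Eif3m rose in prostate tumors, by 0.45 (adjusted p = 0.000815) and 0.55 (adjusted p = 0.000329). Both calls were lost with the muscle covariate (0.25 and 0.65) and within the first block (0.41 and 0.59). Eif3i passed at no site, with differences from -0.28 to 0.29, and Eif3i and Eif3m passed in mammary gland after quantile normalization (-0.43 and -0.38).

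Among the direct models Eif3i, a subunit built of WD repeats, was the member of this group that rose most often, in 5 of 8 models. MMTV-her2/neu tumors were at 1.45, 1.55, 1.71, 1.18 and 1.53, a mean of 1.48 (SE 0.19, 2.80-fold, adjusted p = 6.25e-07). The p53fp/fp;WAP-cre arrays (0.35, 1.15, 0.83, 0.63) averaged 0.74 (adjusted p = 0.00869; as deposited 0.64 and adjusted p = 0.0573). MMTV-PyMT (0.58, 0.27, 0.90, 0.55, 1.26) averaged 0.71 (adjusted p = 0.00516) and missed the threshold without array 5 (0.58, adjusted p = 0.0543). MMTV-ras (0.39, 0.49, 0.80, 0.61, 1.18) averaged 0.69 (adjusted p = 0.0104) and missed it without array 5 (0.57, adjusted p = 0.0589). The Brca1 Co/Co arrays split into 1.35, 0.99 and 1.48 against -0.28 and -0.31, with a mean of 0.64 (adjusted p = 0.00638; after quantile normalization 0.40 and adjusted p = 0.0509). Eif3i was 1 of 2 genes on the list that differed among the 5 FVB models (adjusted p = 0.0131). Neither call held as deposited, and only 1 of the 2 held in 19 of 24 refits without 1 array. Eif3d rose in the Brca1 Co/Co model (1.53, 0.94, 1.29, 0.04, 0.51; mean 0.86, adjusted p = 6.9e-05). It fell in C3(1) tumors (-0.30, -1.19, -0.19, -0.47, -0.50; mean -0.53, adjusted p = 0.0109), a call lost as deposited (-0.20) and without array 2 (-0.37, adjusted p = 0.121). Eif3a rose in p53fp/fp;WAP-cre (0.70, adjusted p = 0.00386; as deposited 0.60 and adjusted p = 0.0512) and in p53-/-;transplant (0.75, 0.52, 0.47, 0.59, 0.19; mean 0.51, adjusted p = 0.0245), where it missed the threshold without array 1 (0.44), 2 (0.50), 3 (0.51) or 4 (0.48), as deposited (0.47) and with a random block (0.50). Eif3m rose in p53fp/fp;WAP-cre (0.33, 1.16, 0.93, 0.82; mean 0.81, adjusted p = 0.0306), a call lost without array 2 (0.69), 3 (0.77) or 4 (0.81), as deposited (0.71) and with a random block (0.81). In MMTV-myc (0.50, 0.63, 0.54, 1.48) Eif3m averaged 0.79 (adjusted p = 0.0441), a call lost without array 1 (0.88), 2 (0.84), 3 (0.87) or 4 (0.56), and with a replicate block or a random block (0.79 in both).

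The factors that set up the start codon include eIF1A, which helps the scanning ribosome recognise it and is encoded by the related genes Eif1a and Eif1ax. Their clones may cross-react, but their values differed. Eif1ax, the X-linked copy, was at -1.06, -0.90, -0.93 and -1.0 in normal lung and -0.27, -0.38, 0.15 and -0.17 in lung tumors, a difference of 0.80 (SE 0.11, 1.74-fold, adjusted p = 9.53e-07). Normal prostate (-1.14, -1.11, -1.03, -1.03) and prostate tumors (-0.42, -0.22, -0.34, -0.15, -0.31) differed by 0.79 (SE 0.11, adjusted p = 1.13e-07). Normal mammary gland (-0.86, -0.78, -0.62, -0.86) and mammary tumors (0.17, -0.52, -0.12, -0.15) differed by 0.63 (SE 0.11, adjusted p = 3.4e-05). None of these 3 pairs of groups overlapped. Seminal vesicle tumors (lowest -0.86, median -0.80, highest -0.64) lay within the range of their normal tissue (-0.87, -0.95, -0.88, -0.55; difference 0.03, adjusted p = 0.822), and the prostate change exceeded the seminal vesicle change by 0.76 (adjusted p = 7.78e-05).

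Eif1a was the gene with the lowest p in the test of the 4 sites (adjusted p = 1.67e-08). Normal seminal vesicle was high, at 0.71, 0.87, 0.85 and 1.10, and its tumors ran from -0.06 through -0.03 to 0.23, a difference of -0.85 (SE 0.10, 1.80-fold lower, adjusted p = 1.61e-07) that lost its call with blocks of array numbers (-0.67). Normal prostate was at -0.77, -0.53, -0.41 and -0.92, lower than normal seminal vesicle by 1.54 on the log2 scale (difference -1.54, SE 0.11, 2.90-fold, adjusted p = 6.36e-13), and the difference of prostate tumors (-0.54, -0.43, -0.68, -0.73, -0.73) from it was 0.03 (adjusted p = 0.819). In mammary gland Eif1a went from -0.31, -0.34, -0.22 and -0.43 to 0.19, 0.21, -0.02 and 0.37, a rise of 0.51 (SE 0.11, adjusted p = 0.000422).

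Eif1ax rose in 6 of the 8 direct models, by 0.50 in C3(1) to 1.08 in p53fp/fp;WAP-cre (1.32, 0.81, 1.29, 0.88; adjusted p = 5.97e-05). MMTV-PyMT (0.57, 0.39, 0.91, 0.67, 1.29) averaged 0.77 (adjusted p = 0.00103), MMTV-her2/neu 0.56 (adjusted p = 0.0155) and MMTV-ras 0.52 (adjusted p = 0.0335), each with every array above 0. The MMTV-her2/neu call was lost as deposited (0.53, adjusted p = 0.0837). MMTV-myc (0.84, 0.78, 0.77, 0.35) averaged 0.69 (adjusted p = 0.0107) and missed the threshold without array 1 (0.63, adjusted p = 0.0549). The C3(1) arrays included 1 at -0.46, and that call (adjusted p = 0.0218) was lost without array 2 (0.47), 4 (0.40) or 5 (0.39). The Brca1 Co/Co arrays split again, into 1.24, 0.40 and 0.99 against -0.24 and -0.38 (mean 0.40, adjusted p = 0.0553; as deposited 0.59 and adjusted p = 0.0245). Eif1a rose in p53fp/fp;WAP-cre (1.11, 0.52, 1.65, 1.04; mean 1.08, SE 0.22, 2.12-fold, adjusted p = 5.51e-05). It also rose in p53-/-;transplant (0.47, 0.76, 0.26, 1.35, 0.37; mean 0.64, adjusted p = 0.00618; 0.46 and adjusted p = 0.0769 without array 4) and in MMTV-myc (0.34, 0.48, -0.03, 1.43; mean 0.56, adjusted p = 0.0336), where the call was lost without array 1 (0.63), 2 (0.58) or 4 (0.27).

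**Figure D4:**
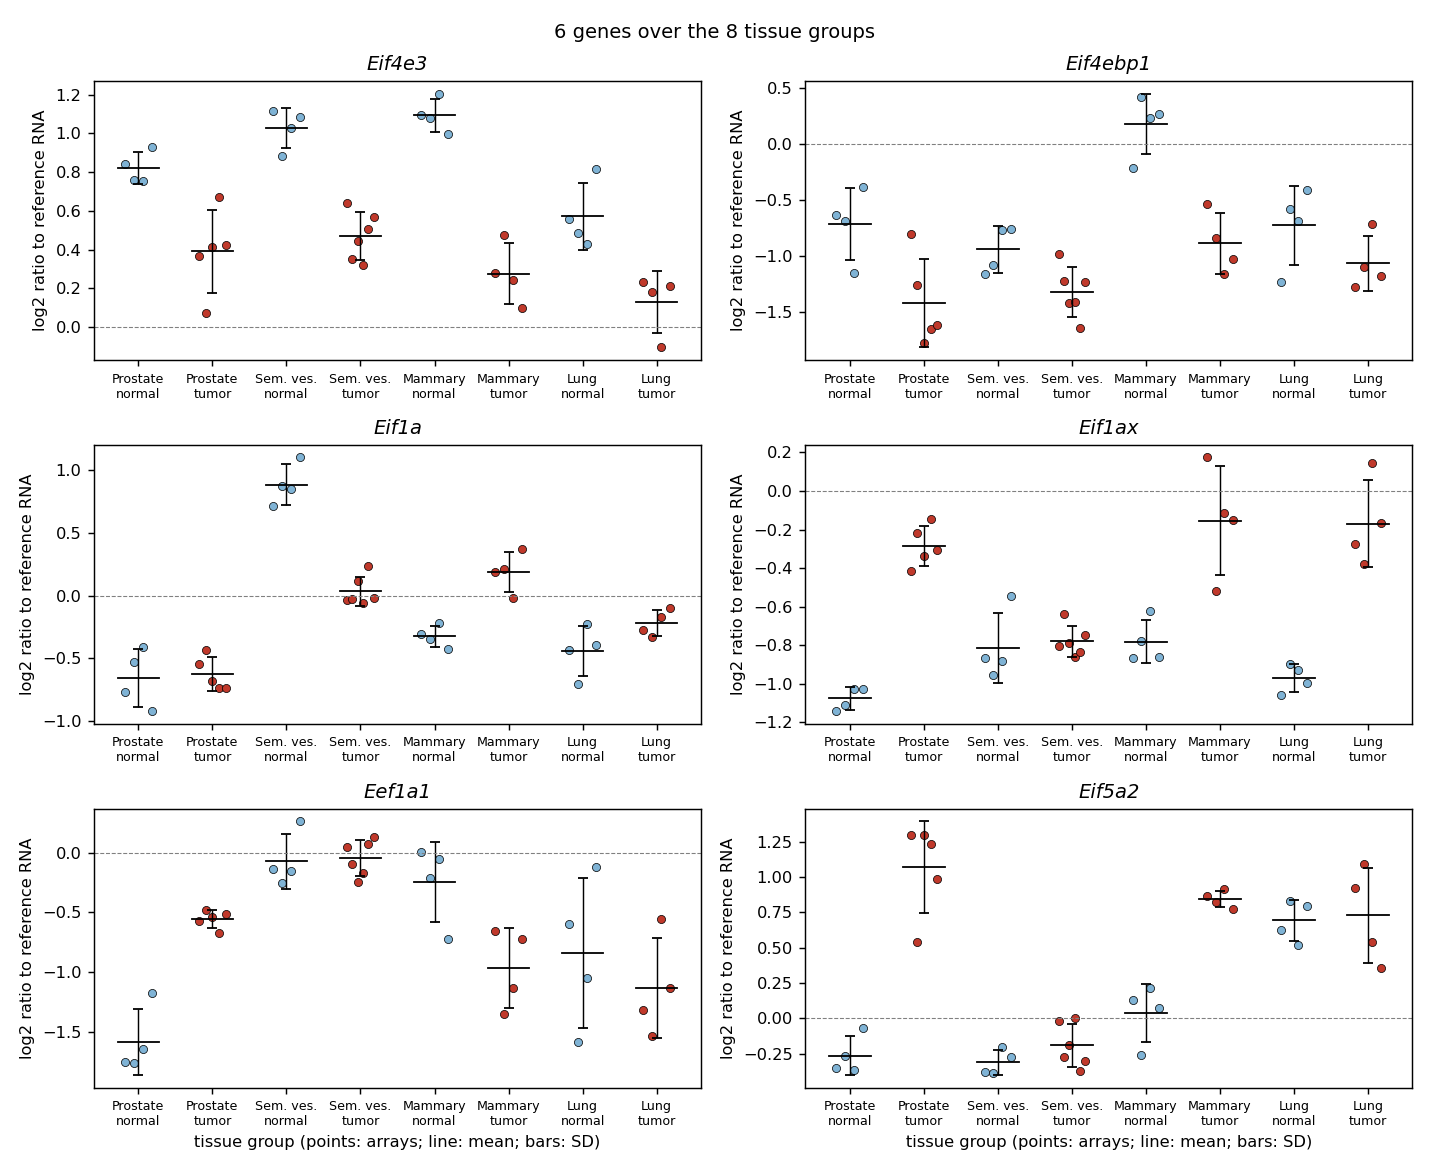
Log2 ratio to the reference RNA on each array for Eif4e3, Eif4ebp1, Eif1a, Eif1ax, Eef1a1 and Eif5a2 in the 8 tissue groups; lines are means and bars are SD. Eif4e3 falls from normal to tumor at each site, Eif1ax rises at all but seminal vesicle, and Eif1a is high in normal seminal vesicle, with means of 0.88 there and -0.66 in normal prostate.

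Eif2a encodes an initiator-tRNA carrier that is distinct from eIF2, Eif2b4 a subunit of the exchange factor that recharges eIF2, and Eif2s3y the Y-linked copy of the eIF2 gamma subunit. Eif2a rose in lung tumors, from -0.48, -0.57, -0.34 and -0.57 to 0.19, -0.06, 0.06 and 0.22 (difference 0.59, SE 0.13, 1.51-fold, adjusted p = 0.00042). In MMTV-myc it was at 0.41, 0.88, 0.51 and 1.76, a mean of 0.89 (adjusted p = 0.00195). Eif2a was the other gene that differed among the FVB models (adjusted p = 0.0478), with the limits given for Eif3i. Eif2b4 went opposite ways at different sites. It fell in seminal vesicle tumors by 0.35 on the log2 scale (difference -0.35, SE 0.09, adjusted p = 0.00226), a call lost with blocks of array numbers (-0.47), and rose in lung tumors by 0.30 (adjusted p = 0.0154), a call lost with blocks of array numbers (0.24) and within the first block (0.26). It also rose in MMTV-her2/neu and MMTV-ras (0.56, adjusted p = 0.0341), with every array of both models above 0. With a random block both calls were lost (0.54, adjusted p = 0.056, and 0.53, adjusted p = 0.0612), as was that of MMTV-her2/neu as deposited (0.54, adjusted p = 0.0813).

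Eif2s3y was at -0.29, -0.21, -0.37 and -0.24 in normal seminal vesicle, and its tumors ran from -0.31 through 0.37 to 0.67. The ranges overlapped, and the difference of 0.56 (SE 0.19, adjusted p = 0.0147) lost its call after quantile normalization (0.47), with blocks of array numbers (0.64) and with a replicate block (0.43). The Brca1 Co/Co tumors were at 1.48, 0.66, 1.14, 0.60 and 1.21, a mean of 1.02 (SE 0.22, 2.03-fold, adjusted p = 0.000281). Kdm5d, another Y-linked gene, averaged 0.29 in the Brca1 Co/Co model with arrays from -0.65 to 1.22. How far the X-linked copy contributes to the Eif2s3y clone was not tested.

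The eIF2 kinases are PKR (Eif2ak2, activated by double-stranded RNA), PERK (Eif2ak3, activated by unfolded protein in the endoplasmic reticulum) and GCN2 (Eif2ak4, activated by lack of amino acids). Eif2ak2 rose at 3 sites. In lung it was at -0.63, -0.25, -0.29 and -0.42 in normal tissue and at 0.15, 0.18, 0.23 and 0.15 in tumors (difference 0.58, SE 0.10, adjusted p = 2.93e-05), and in mammary gland at -0.10, -0.48, -0.23 and -0.36 against 0.36, 0.06, 0.10 and 0.45 (difference 0.54, SE 0.10, adjusted p = 6.88e-05). Normal seminal vesicle (-0.33, -0.33, -0.40, -0.42) and its tumors (lowest -0.22, median -0.04, highest 0.11) differed by 0.33 (adjusted p = 0.00481), a call lost after quantile normalization (0.19). The 2 features of Eif2ak2 did not give the same size. The first gave 0.62 in seminal vesicle, 0.77 in mammary gland and 0.75 in lung, and the second 0.04 (adjusted p = 0.815), 0.30 (adjusted p = 0.0596) and 0.40 (adjusted p = 0.0107). Prostate did not pass (-0.08, adjusted p = 0.496). Of the direct models MMTV-PyMT passed (0.71, 0.19, 0.39, 0.15, 0.79; mean 0.45, adjusted p = 0.0146), a call lost as deposited (0.41, adjusted p = 0.127). Its 2 features gave 0.52 (adjusted p = 0.0333) and 0.26 (adjusted p = 0.175) there. The features went opposite ways in MMTV-myc, at 0.18 and -0.43 (adjusted p = 0.559 and 0.034), and in p53fp/fp;WAP-cre, at 0.65 and -0.04 (adjusted p = 0.044 and 0.876). They also did in the Brca1 Co/Co model, at -0.18 and 0.02, where neither passed.

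Eif2ak3 fell in prostate tumors, from 0.40, 0.31, 0.32 and 0.37 to -0.37, -0.29, -0.23, -0.27 and -0.07, a difference of -0.60 (SE 0.09, 1.51-fold lower, adjusted p = 6.74e-07). Normal and tumor arrays did not overlap, and the other sites had differences from -0.04 to 0.06. In the direct models Eif2ak3 rose in C3(1) (0.44, 0.89, 0.65, 0.41, 1.13; mean 0.70, adjusted p = 0.000694) and in MMTV-her2/neu (1.07, 0.79, 0.61 and 0.60, n = 4; mean 0.77, adjusted p = 0.00176). It rose as well in MMTV-PyMT (0.68, n = 4, adjusted p = 0.00409) and MMTV-ras (0.64, adjusted p = 0.00471), and all arrays of these 4 models were above 0. In p53-/-;transplant tumors it was at -0.30, -0.01, -1.44, -0.48 and -0.13, a mean of -0.47 (adjusted p = 0.0303) that became -0.23 (adjusted p = 0.339) without array 3 and missed the threshold without array 4 (-0.47, adjusted p = 0.0731), as deposited (-0.51) and with a random block (-0.46). The models differed in Eif2ak3 (adjusted p = 0.000356).

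Eif2ak4 changed little at the sites, with falls of -0.26 in seminal vesicle (adjusted p = 0.0284) and -0.27 in mammary gland (adjusted p = 0.036). The seminal vesicle call was lost with blocks of array numbers (-0.22) and without normal array 1 (-0.18), normal array 3 (-0.22) or tumor array 2 (-0.23), and the mammary call with blocks of array numbers (-0.28) and within the first block (-0.26). It was the gene with the lowest p among the 8 models (adjusted p = 2.6e-05). It rose in p53-/-;transplant (0.31, 0.40, 0.64, 0.81, 0.59; mean 0.55, SE 0.11, adjusted p = 0.000371) and fell in the Brca1 Co/Co model, where the 3 arrays with a value gave -0.45, -1.08 and -1.27 (mean -0.93, SE 0.14, 1.91-fold lower, adjusted p = 2.69e-06).

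Of the 5 elongation factor genes measured, 3 rose in prostate tumors, none passed in seminal vesicle, 1 rose and 2 fell in mammary gland, and 1 rose and 1 fell in lung, beside 61.4%, 43.5%, 36.7% and 36.5% of all genes that passed. Eef1a1 encodes the common form of eEF1A, and Eef1a2 the form typical of muscle and brain, so the clones may cross-react. Eef1a1 was at -1.75, -1.76, -1.64 and -1.18 in normal prostate and at -0.57, -0.48, -0.54, -0.67 and -0.51 in prostate tumors. These did not overlap, and the difference was 1.03 (SE 0.21, 2.04-fold, adjusted p = 6.9e-05), but with the muscle mean as a covariate it was 0.32 (adjusted p = 0.608). Normal seminal vesicle, where muscle markers averaged -0.03, was at -0.14, -0.26, -0.16 and 0.26, and normal prostate was lower than it by 1.51 on the log2 scale (difference -1.51, SE 0.22, adjusted p = 8.49e-07; -0.79 and no call with the muscle covariate). In mammary gland Eef1a1 fell, from 0.01, -0.21, -0.05 and -0.72 to -0.66, -1.35, -1.13 and -0.72 (difference -0.72, SE 0.22, adjusted p = 0.0087).

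Eef1a2 fell in lung tumors, from 0.52, -0.07, 0.88 and 0.30 to -0.24, 0.15, -0.15 and -0.53, ranges that overlapped (difference -0.60, SE 0.21, adjusted p = 0.0257). That call was lost within the first block of array numbers (-0.58) and without normal array 1 (-0.56), normal array 3 (-0.45), tumor array 1 (-0.59) or tumor array 4 (-0.49). Normal mammary gland (0.09, -1.26, -0.06, -0.14) held less than normal lung (difference -0.75, adjusted p = 0.00683), and without mammary array 2 the difference was -0.45 (adjusted p = 0.0684). No other site and no direct model passed for Eef1a2 in tumors.

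Eef1g encodes a subunit of the exchange factor that recharges eEF1A. It fell in mammary tumors of the reference arrays, from -0.87, -0.70, -0.57 and -0.92 to -1.43, -1.65, -1.96 and -1.65 (difference -0.91, SE 0.17, 1.87-fold lower, adjusted p = 4.68e-05), and no other site passed. It rose in 5 of the direct models. The p53fp/fp;WAP-cre arrays gave 2.21, 1.78 and 1.52 (n = 3), a mean of 1.84 (SE 0.36, 3.57-fold, adjusted p = 0.000168). The Brca1 Co/Co arrays split into 1.89, 2.08 and 1.61 against 0.01 and -0.44 (mean 1.03, adjusted p = 0.00257). Weaker rises in p53-/-;transplant (0.59, 0.55, 1.08, 0.97, 0.81; mean 0.80, adjusted p = 0.0354), MMTV-ras (0.77, adjusted p = 0.0461) and MMTV-her2/neu (0.73, adjusted p = 0.0488) were lost without any 1 of the 5 arrays of the model, at 0.73 to 0.86, 0.66 to 0.85 and 0.69 to 0.83, although every array was above 0. These 3 calls were also lost with a replicate block, at the same values, and with a random block of array numbers (0.79, 0.71 and 0.74). As deposited the calls in p53-/-;transplant (0.77, adjusted p = 0.0619) and MMTV-her2/neu (0.69, adjusted p = 0.0796) were lost, and that in MMTV-ras held (0.95). C3(1) tumors ranged from -2.11 to 0.85 with no call.

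Eef2, the translocation factor, rose in prostate tumors, from -1.05, -1.0, -1.11 and -0.86 to -0.42, -0.16, -0.19, -0.21 and -0.10 (difference 0.79, SE 0.14, 1.73-fold, adjusted p = 1.56e-05). In lung it went from -1.04, -1.22, -0.99 and -0.59 to -0.53, -0.38, -0.02 and -0.63 (difference 0.57, SE 0.15, adjusted p = 0.00306). The lung ranges overlapped and the prostate ranges did not, and the lung call was lost within the first block of array numbers (0.42). In p53fp/fp;WAP-cre it was at 0.95, 0.68, 0.73 and 0.85, a mean of 0.80 (adjusted p = 0.042), a call lost as deposited (0.70, adjusted p = 0.0898), with a random block (0.80, adjusted p = 0.15) and with a replicate block (0.75, adjusted p = 0.0775).

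Eif5a2, the inducible form of eIF5A that is amplified in some cancers, had the second largest rise in prostate tumors. It went from -0.35, -0.27, -0.37 and -0.07 to 1.30, 0.54, 1.30, 1.23 and 0.99, a difference of 1.33 (SE 0.14, 2.52-fold, adjusted p = 4.54e-10), and it kept its call with the muscle covariate (1.49). In mammary gland it went from 0.13, -0.26, 0.21 and 0.07 to 0.87, 0.82, 0.91 and 0.78, a difference of 0.81 (SE 0.14, 1.75-fold, adjusted p = 3.34e-05). Seminal vesicle (0.12, adjusted p = 0.486) and lung (0.04, adjusted p = 0.873) did not pass, and normal lung (0.62, 0.83, 0.52, 0.80) already lay near the level of the mammary tumors. The prostate change exceeded that of seminal vesicle by 1.21 (SE 0.19, adjusted p = 3.02e-06), and the mammary change exceeded that of lung by 0.77 (adjusted p = 0.00537). Prostate tumors were also the group with high neuroendocrine markers, and the part of those cells was not tested. In MMTV-PyMT tumors Eif5a2 was lower (-0.42, -1.05, -0.21, -0.52; n = 4, mean -0.55, adjusted p = 0.0339), a call lost as deposited (-0.59) and without array 2 (-0.60), 3 (-0.38) or 5 (-0.56).

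Of the enzymes that modify elongation factors, Eef2k encodes the kinase that inhibits eEF2, and Eef1akmt1 and Eef1akmt2 encode lysine methyltransferases of eEF1A. Eef2k passed at no site (0.09 in prostate, with a 95% interval of -0.20 to 0.37). It rose in C3(1) tumors, at 0.92, 2.07 and 0.95 on the 3 direct arrays with a value (mean 1.31, SE 0.27, 2.49-fold, adjusted p = 0.000326), and in MMTV-PyMT at 1.21, 1.82, 0.97 and 1.02 (n = 4, mean 1.26, SE 0.23, adjusted p = 0.000175). Eef1akmt2 rose in prostate tumors, from -0.57, -0.57, -0.57 and -0.24 to 0.52, 0.24, 0.14, 0.25 and 0.23 (difference 0.76, SE 0.10, 1.69-fold, adjusted p = 8.55e-08), with no call under the muscle covariate (0.53, adjusted p = 0.0566). In seminal vesicle it went from 0.29, 0.18, 0.29 and 0.20 to a range of -0.14 to 0.06 with a median of -0.03 (difference -0.28, adjusted p = 0.021), a call lost after quantile normalization (-0.22) and without normal array 1 (-0.26) or 3 (-0.26), and with blocks of array numbers the difference was 0.04. The change in prostate lay above that in seminal vesicle by 1.04 (SE 0.14, adjusted p = 2.71e-07). Eef1akmt1 rose in seminal vesicle tumors, from -0.57, -0.63, -0.33 and -0.56 to a median of -0.02 (lowest -0.39, highest 0.08; difference 0.41, adjusted p = 0.0107), a call lost after quantile normalization (0.24) and with blocks of array numbers (0.47). Eef1akmt2 fell in C3(1) direct tumors (-0.43, adjusted p = 0.0486), where leaving out any 1 of the 5 arrays ended the call at -0.48 to -0.37. That call was also lost as deposited (-0.10, adjusted p = 0.72) and with a random block (-0.41, adjusted p = 0.0689). In the Brca1 Co/Co model Eef1akmt2 fell as well (-0.45, adjusted p = 0.036), a call lost as deposited (-0.26), after quantile normalization (-0.28) and with a random block (-0.41).

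Among normal tissues, the prostate and seminal vesicle differed in 9 of the 31 genes (3 higher and 6 lower in prostate), where 50.1% of all genes differed (24.6% higher, 25.5% lower), with medians of -0.11 and 0.00. With each array centred the split was 2 higher and 8 lower. Eif1a and Eef1a1 had the largest differences, given above. Eef1akmt2 was lower in normal prostate (difference -0.72, adjusted p = 1.16e-06; no call with the muscle covariate, -0.49), as was Eif3d (-0.72, adjusted p = 6.79e-06; no call with the muscle covariate, -0.52, or with blocks of array numbers, -0.42). Eif2ak3 was higher there by 0.41 (adjusted p = 0.000445), and Eif2a by 0.31 (adjusted p = 0.0473). The Eif2a call was lost after quantile normalization (0.17), with each array centred (0.27), with blocks of array numbers (0.47) and with the muscle covariate (0.45). It was also lost without each normal array of these tissues in turn except prostate array 4 (0.27 to 0.33). Normal mammary gland and lung differed in 12 genes (10 higher and 2 lower in mammary gland), where 29.9% of all genes differed (17.3% higher, 12.6% lower), with medians of 0.25 and 0.01. Eif4ebp1 (0.91), Eif4a1 (0.75) and Eef1g (0.69, adjusted p = 0.0014) were the genes most above lung. Eef1a2 (-0.75) and Eif5a2 (-0.66, SE 0.14, adjusted p = 0.00057) were the genes below it.

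The tumor changes of paired sites were compared within each strain. Between prostate and seminal vesicle 15 genes differed (11 with the higher change in prostate and 4 with the lower), where 46.7% of all genes did (22.6% higher, 24.1% lower). The largest were Eif4a1 (1.43), Eif5a2 (1.21) and Eef1akmt2 (1.04), and on the lower side Eif2ak3 (-0.65, adjusted p = 5.1e-05), Eif4a2 (-0.64) and Eif3a (-0.59, adjusted p = 0.0181; no call with the muscle covariate, -0.61, or with blocks of array numbers, -0.71). Between mammary gland and lung 9 genes differed (1 higher and 8 lower in mammary gland), where 24.2% of all genes did (12.2% higher, 12% lower), and the median over the list was -0.36 against 0.01 over all genes. Eif5a2 was the 1 gene with the higher change in mammary gland. Eif4a1 (-1.08), Eif3l (-0.94), Eef1g (-0.80, adjusted p = 0.0121; no call with blocks of array numbers, -0.73) and Eef2 (-0.79, adjusted p = 0.00591) were the lowest. The comparisons share arrays with those of single sites and are not independent of them.

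The C3(1) mammary tumors were measured in both designs. Of the 27 genes, 10 passed against the reference RNA and 9 on direct arrays, where 36.7% and 41.8% of all genes passed. In both designs 3 passed, each in the same direction. The share of all genes that passed in both was not counted, so this overlap is not a result about the list. The 3 genes were Eif1ax (0.63 on reference arrays and 0.50 on direct arrays), Eif4a2 (-0.79 and -1.11) and Eif4e3 (-0.82 and -0.50). The direct calls of Eif1ax and Eif4e3 have the limits given above. The widest gaps were in Eif4ebp2 (-0.02 on reference arrays and 1.60 on direct arrays), Eef2k (-0.17 and 1.31), Eif4ebp1 (-1.07 and -0.01), Eif2ak3 (-0.04 and 0.70) and Eif5a2 (0.81 and 0.07). As a description over 5752 genes, the 2 sets of changes correlated with Pearson's r at 0.50 and Spearman's rho at 0.38. Adipocyte markers fell by 2.16 on average on the direct C3(1) arrays and from 3.54 to 1.13 on the reference arrays. Skeletal muscle markers also averaged -2.16 on the direct C3(1) arrays. On the reference arrays their means were 1.21 in normal mammary gland, with arrays from -0.21 to 3.15, and 1.05 in mammary tumors. The part of muscle in the gaps between the designs was not tested. The dyes were not swapped in either design, so a dye bias of a single gene cannot be told apart from its change on direct arrays.

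**Figure D5:**
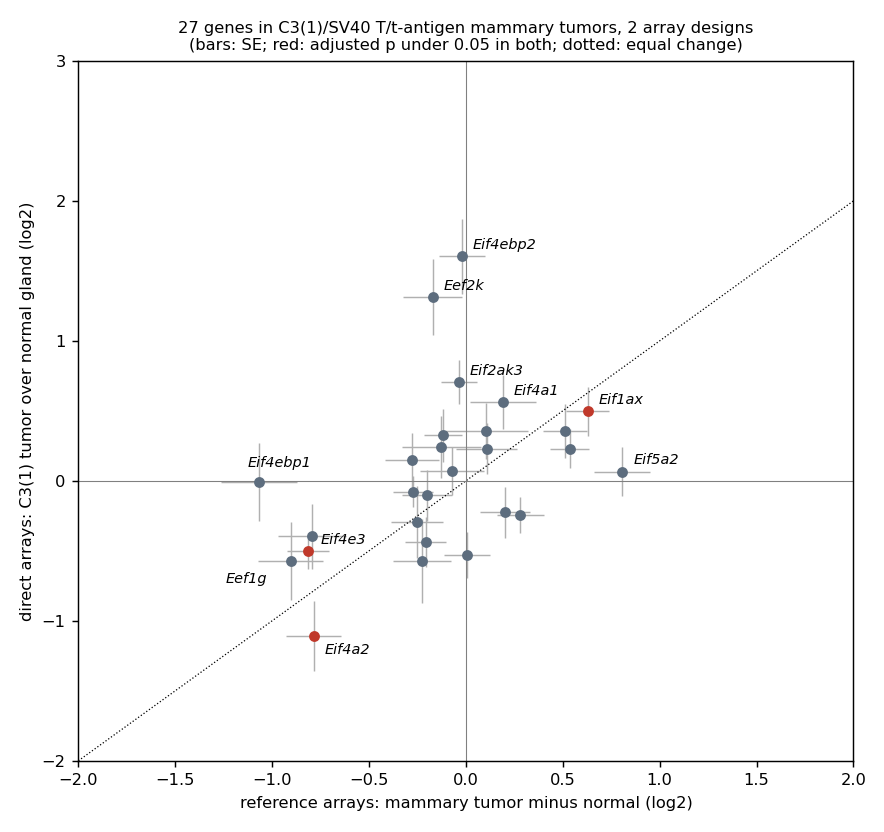
Log2 change of 27 genes in C3(1)/SV40 T/t-antigen mammary tumors on reference arrays (horizontal) and direct arrays (vertical), with SE bars, the line of equal change dotted and genes past the threshold in both designs in red. Eif1ax, Eif4a2 and Eif4e3 are red, and Eif4ebp2 and Eef2k lie far above the line at -0.02 and -0.17 on the horizontal axis.

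The Brca1 Co/Co arrays fell into 2 blocks of neighbouring array database numbers, replicates 1 to 3 and replicates 4 and 5. Of the 27 genes, 21 were higher in the first block, with a median gap of 0.53. Over 5765 genes 56.9% were higher there, with a median gap of 0.12. In 8 genes the blocks differed by more than 1 log2 unit, as they did in 16.5% of all genes. Eif4a1 averaged 1.69 in the first block and 0.07 in the second, Eif3i 1.27 and -0.30, Eif1ax 0.88 and -0.31, Eef1g 1.86 and -0.22, Eef2 0.67 and -0.88, and Eif3m 0.31 and -1.10. Eif4a2 (-1.76 and -2.03), Eif4e3 (-0.82 and -1.36), Eif4ebp2 (1.10 and 0.71) and Eif2s3y (1.10 and 0.90) kept their direction in both. The p53-/-;transplant arrays also fell into 2 blocks, with a median gap of 0.04 over the 27 genes. What set the blocks apart was not tested.

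Other genes of the translation machinery were counted in the same comparisons. Of 28 ribosomal protein genes, 19 rose and 1 fell in prostate tumors (median 0.51), 2 rose in seminal vesicle (0.10), 16 fell in mammary gland (-0.62) and 5 rose in lung (0.24). The shares of all genes that rose there were 29.2%, 23.3%, 16.6% and 16.2%, and the shares that fell were 32.2%, 20.2%, 20.1% and 20.4%. Beside the prostate counts the muscle marker mean went from 3.95 in normal tissue to 0.00 in tumors, and beside those in mammary gland the adipocyte marker mean went from 3.54 to 1.13; the part of either in these counts was not tested. Of these 28 genes, 27 were lower in normal prostate than in normal seminal vesicle, where 25.5% of all genes were lower. Their median there was -0.81, beside muscle marker means of 3.95 and -0.03. In normal mammary gland 25 of the 28 were higher than in normal lung (median 0.76), where 17.3% of all genes were higher. Among the direct models, 16 of 26 rose in p53fp/fp;WAP-cre, 15 in MMTV-her2/neu, 9 in MMTV-ras and 7 in MMTV-myc, where 18%, 15%, 9.97% and 12.2% of all genes rose, and 1 rose and 5 fell in C3(1), where 22.4% rose and 19.5% fell. In the Brca1 Co/Co model 4 rose and 1 fell, where 26.2% of all genes rose and 21.2% fell. In p53-/-;transplant 3 rose and in MMTV-PyMT 4, where 9.66% and 18.3% of all genes rose. Of 9 genes listed for the aminoacyl-tRNA synthetases, which charge tRNAs with amino acids, 5 rose in prostate tumors and 4 rose in lung tumors. In seminal vesicle tumors 2 rose and 4 fell, and in mammary tumors 1 fell. Aimp1 is on this list as a partner of the synthetases and does not itself charge tRNA. It was among the rises in prostate tumors (0.65). A list of 7 genes for the signalling that controls initiation also holds Asns, the gene of a metabolic enzyme. Of these 7, 1 rose and 2 fell in prostate, and 2 rose and 2 fell in seminal vesicle. In mammary gland 2 fell, and in lung 1 rose and 2 fell. Of 7 genes for mRNA binding, termination and ribosome recycling, 4 rose and 1 fell in lung tumors, 2 rose and 1 fell in prostate tumors and 2 rose in mammary tumors. In seminal vesicle tumors 1 of these rose and 1 fell.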

How the data were processed

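The authors deposited a log2 ratio for each feature of each array, and per the labels both sets of arrays used Cy3 and Cy5 without a swap. Image analysis, background correction and normalization are not given in the sources used here, the files hold no intensities, and the number of arrays limits the precision. Base and direction were checked on the values. The interaction rule of the series text picked 2638 features from log2 values, the number that text states, against 3770 as natural logarithms and 4174 to base 10. Ratios were read as tissue over reference from markers, and as tumor over normal from the C3(1) tumors of both designs. A marker counted where its normal tissue lay above the mean of the other normal tissues. That held for 7 of 7 lung epithelium, 10 of 10 adipocyte and 7 of 8 milk markers, but for 1 of 4 prostate secretory genes. Of the features, 7486 carry 1 symbol (7395 matched to RefSeq of GRCm38.p6), 483 several and 1627 none, and the latter 2 kinds were left out. Reference arrays (medians -0.05 to 0.01; 9244 to 9572 features with a value) were used as deposited, and direct arrays (7042 to 7934 features) were centred on their median.

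Features of a gene were averaged per array. Groups were fitted with limma 3.58.1 (lmFit, eBayes) under R 4.3.3 (tables read by the package data.table, version 1.17.8), 8 means per design, for genes with at least 3 values in each group, and the steps were tested on simulated data. The threshold was a Benjamini-Hochberg adjusted p of 0.05 over all genes. Site and model differences used moderated F tests. Direct means were tested against 0, so the spread of normal gland does not enter. The SE of a difference is from the fit, and 95% intervals are 1.96 SE. Blocks are runs of array database numbers less than 20 apart. Alternatives were median centring, quantile normalization, single features, complete genes, and blocks as a fixed factor (reference) or random block (direct). Others were the first block alone, the muscle mean as covariate (reference arrays only), a replicate block, values as deposited, and leaving out each array. Values per array, or statistics alone, are given for up to 5 rises and 5 falls per tumor comparison or model. Between normal tissues or sites they are given for up to 3 each way, and for 5 by F test. The cap, 4E-binding, eIF2 kinase, eEF1A and eEF2 genes were added whatever their values, but not with values in every comparison. The members, lists and rules were chosen with earlier results of these data known.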

Additional observations from a re-analysis of the deposited data

Results flagged for a closer look

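Among the genes reported, 129 gene and group pairs were listed, and those with fewer than 4 values were skipped. Chance marks about 1 in 20 of the pairs tested, which number fewer than 129. In 6 pairs 1 array lay far from the others of its group. These were Eif4g2 in normal prostate array 1 (0.39), Eif2b4 in seminal vesicle tumor array 1 (0.073), Eif4e3 in lung tumor array 3 (-0.10), Eif3m (1.48) and Eif1ax (0.35) in MMTV-myc array 4, and Eif4ebp2 in MMTV-PyMT array 4 (0.12). MMTV-myc array 4 was also the highest of its group for Eif4a2 (1.02) and Eif1a (1.43) and the lowest for Eif3f (-2.66).

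The tumor change differed between prostate and seminal vesicle, by a test of the difference, for Eif4a1 (1.43), Eif5a2 (1.21), Eef1akmt2 (1.04), Eif2ak3 (-0.65), Eif4a2 (-0.64) and Eif3a (-0.59), given as prostate minus seminal vesicle. Between mammary gland and lung it differed for Eif5a2 (0.77), Eif4a1 (-1.08), Eif3l (-0.94) and Eef1g (-0.80). Over the 4 sites the adjusted p was lowest for Eif1a (1.67e-08), Eif4a1 (3.52e-07), Eef1akmt2 (4.01e-07), Eif5a2 (1.18e-06) and Eif3l (5.76e-06). Over the 8 direct models it was lowest for Eif2ak4 (2.6e-05), Eif4e3 (0.000348), Eif2ak3 (0.000356), Eif4ebp2 (0.00106) and Eif4g3 (0.00175), in models that also differ in strain. Over the 5 FVB models Eif3i (0.0131) and Eif2a (0.0478) passed.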

How the results depend on the processing

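Counts of translation factor genes past the threshold stayed within 1.5 times the reported count under median centring (9 comparisons), single features (19) and the first block of array numbers alone (3). With blocks of array numbers as a fixed factor the count was 2 in seminal vesicle, 6 between prostate and seminal vesicle, 5 between mammary gland and lung, 5 between normal prostate and seminal vesicle and 13 over the 4 sites, against 10, 15, 9, 9 and 20. Normal seminal vesicle arrays all lay in 1 block. With the muscle mean as a covariate it was 6 in prostate, 7 between prostate and seminal vesicle and 2 between their normal tissues, and muscle and group are nearly the same contrast in prostate. Quantile normalization gave 5 in seminal vesicle and 5 over the FVB models. With a value required on every array, 5 genes passed in MMTV-PyMT (18 testable) and 5 over the 8 models (10 testable). As deposited, the direct counts were 4 in p53-/-;transplant, 5 in p53fp/fp;WAP-cre, 5 in MMTV-her2/neu, 8 in MMTV-myc and 0 over the FVB models, where 2 passed after centring. With a random block (correlation 0.19) 4 passed in p53-/-;transplant and 5 in MMTV-ras. Leaving out 1 array gave 14 to 16 in prostate, 7 to 12 in seminal vesicle, 10 to 14 in mammary gland and 11 to 15 in lung. It gave 3 to 6 in p53-/-;transplant, 5 to 10 in p53fp/fp;WAP-cre, 10 to 13 in the Brca1 Co/Co model, 6 to 8 in C3(1), 5 to 7 in MMTV-her2/neu, 2 to 6 in MMTV-myc (2 without array 1), 4 to 6 in MMTV-ras, 6 to 8 in MMTV-PyMT and 1 to 3 over the FVB models. It gave 14 to 15 between prostate and seminal vesicle, 6 to 11 between mammary gland and lung, 6 to 11 and 10 to 12 between the normal tissues, 19 to 22 over the sites and 12 to 18 over the 8 models.

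The difference of Eef1akmt2 in seminal vesicle changed sign with blocks as a fixed factor (0.035); the cause was not tested. Of 847 refits of named genes without 1 array, 89 lost the call and 0 changed sign. The replicate numbers did not pair the samples, with correlations of deviations from -0.24 to 0.22 over 16 pairs of arrays with the same number at 1 site. With a replicate block 1 gene passed over the FVB models, and the other 18 counts stayed within 1.5 times. Weak signals could not be judged, since the files hold ratios only.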
